A study of Mus musculus with 12 samples.

Results

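The coronin genes Coro1a, Coro1b, Coro1c, Coro2a, Coro2b and Coro7 were followed through the differentiation of mouse B cells into plasmablasts in Mzb1 knockout and wild-type cultures. They were taken by symbol, 6 of the 24325 gene symbols listed for each library, and all 6 were among the 11069 genes that reached 1 FPKM in at least 2 libraries and were tested. FPKM divides fragments by transcript length and by the size of the library, so levels can be set beside each other between genes. The family was picked because Coro2a was already known to be much lower in the knockout cells of these data, so the knockout-against-wild-type differences of the coronins within a population are given below as descriptions, with no p. The symbol Coro6 was also listed, at 0 to 0.477 FPKM, and was neither a member nor tested.

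B cells were taken with anti-B220 beads from the spleens of C57BL/6 mice, grown for 4 days with 25 µg/ml of the bacterial product lipopolysaccharide and then sorted. The knockout (ko) cells were Mzb1-/- Prdm1+/gfp and the wild-type (wt) cells Mzb1+/+ Prdm1+/gfp. Both genotypes therefore carried 1 Prdm1 allele with a green fluorescent reporter, and Prdm1 encodes Blimp1, the transcription factor that drives plasma cell formation. From each genotype, activated B cells (ActB, negative for the reporter and for the plasma cell marker CD138), pre-plasmablasts (PrePB, positive for the reporter alone) and plasmablasts (PB, positive for both) were sorted. Each of the 6 groups had 2 libraries. The animals' age is not given, and no label says whether the 2 libraries of a group came from separate mice. The p-values measure the spread between these libraries, which in ko cells may be technical. In wt cells the replicates differ in Xist and in Y-linked genes, as given below, so their spread is not technical alone.

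Mzb1, a chaperone of the endoplasmic reticulum in B cells and plasma cells, was lower in the ko libraries of each population but was not at 0. It had 273 to 1008 FPKM over the 6 ko libraries, against 845 to 17359 FPKM over the 6 wt libraries, with no overlap within a population. Of the B cell receptor genes, Cd79a had 886 to 1999 FPKM in ko and 586 to 1422 FPKM in wt libraries, and Cd79b had 881 to 1554 FPKM in ko and 915 to 1526 FPKM in wt libraries. Markers of red cells summed to at most 0.113 FPKM in ko and 0.167 FPKM in wt libraries. Sdc1, which encodes CD138, averaged 82.4 FPKM in ko PB and 1.21 FPKM in ko ActB, and 82.3 FPKM in wt PB and 0.983 FPKM in wt ActB. Libraries stood apart in a pair of ways. In wt replicate 1 of all 3 populations Xist stood at 33.3 to 81.4 FPKM, against at most 0.389 FPKM in the other libraries, and the Y-linked gene Ddx3y stood at or near 0. Genes below 0.5 FPKM followed 1 of 2 patterns of values: 8 libraries (the 6 wt libraries with ko ActB and ko PrePB replicate 1) shared the first and 4 (both ko PB libraries with ko ActB and ko PrePB replicate 2) the second, so in PB this pattern and the genotype cannot be told apart. The pattern also differed between ko PB and replicate 1 of ko ActB and ko PrePB. Its part in ko PB against ko ActB or ko PrePB was not tested.

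Coronins are actin-binding proteins with a propeller of WD repeats. The type I members Coro1a, Coro1b and Coro1c bind actin filaments and the Arp2/3 complex, which nucleates branched filaments, and they help cofilin to take old filaments apart at the leading edge of moving cells. Coro1a is the coronin of blood cells, where loss of it depletes naive T cells and has been tied to calcium and calcineurin signalling. Coro2a was found in the NCoR corepressor complex, where in macrophages it takes part in releasing repression of inflammatory genes, and Coro2b is best known from nervous tissue. Coro7 has a tandem pair of propellers, lies at the Golgi and works in transport from it with the ubiquitin ligase subunits Cul3 and Klhl20.

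Sequences upstream of annotated starts are shown for the 3 members with the widest spread of levels in these libraries, Coro2a, Coro2b and Coro1a, because their levels are what the results below turn on. Each line has the 250 bases before a start, 5′ to 3′ on the minus strand, where all 3 genes lie, from RefSeq on the mouse build GRCm38.p6, with CG dinucleotides in capitals. The RNA values were made with the older build mm9 and carry no coordinates. Windows were found for 5 members, 7 in all.
Coro2a, first start, chr4:46601930-46602179: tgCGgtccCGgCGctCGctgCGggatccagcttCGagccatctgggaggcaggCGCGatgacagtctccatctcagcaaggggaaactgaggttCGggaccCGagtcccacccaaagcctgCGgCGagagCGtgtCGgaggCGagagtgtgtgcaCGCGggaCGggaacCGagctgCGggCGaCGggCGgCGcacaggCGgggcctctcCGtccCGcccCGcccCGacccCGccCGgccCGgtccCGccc
Coro2a, second start, chr4:46566441-46566690: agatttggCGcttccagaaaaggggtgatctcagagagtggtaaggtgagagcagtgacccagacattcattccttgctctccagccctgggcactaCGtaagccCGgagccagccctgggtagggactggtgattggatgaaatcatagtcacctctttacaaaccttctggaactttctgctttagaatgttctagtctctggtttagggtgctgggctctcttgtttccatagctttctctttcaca
Coro2b, chr9:62537045-62537294: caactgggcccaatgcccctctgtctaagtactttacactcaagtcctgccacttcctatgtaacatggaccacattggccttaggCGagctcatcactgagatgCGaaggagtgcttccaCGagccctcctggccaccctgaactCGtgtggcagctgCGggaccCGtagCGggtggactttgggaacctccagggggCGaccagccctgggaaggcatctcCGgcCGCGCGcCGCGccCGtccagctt
Coro1a, first start, chr7:126704817-126705066: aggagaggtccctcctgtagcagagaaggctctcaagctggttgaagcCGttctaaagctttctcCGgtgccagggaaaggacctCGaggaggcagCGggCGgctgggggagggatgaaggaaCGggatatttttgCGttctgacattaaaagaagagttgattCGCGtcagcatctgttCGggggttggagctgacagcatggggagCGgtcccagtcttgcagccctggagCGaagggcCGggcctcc
Coro2a has 2 such windows, and both lie inside the span of the gene in the GENCODE M21 annotation and touch 1 annotated Coro2a exon. The first holds 33 CG dinucleotides, more than 96.0% of the 32851 RefSeq windows of the same length, and the second holds 3, more than 29.0% of them. Coro2b has 15 and the first Coro1a window 13, while the median over all windows is 6. In the other windows Coro1c has 34, Coro7 14 and the second Coro1a start 8. The 6 letters GAAAGT, a core of the Blimp1 motif, were searched on both strands: they are in 1 of the 7 windows, that of the second Coro2a start, and in 12.3% of all windows. The match is a description of letters, and gene-level FPKM does not tell the starts of Coro2a apart.

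Between activated B cells and plasmablasts the family changed in a divided way. Coro1a, Coro1b, Coro1c and Coro7 fell in both genotypes, Coro2b rose in both, and Coro2a rose in wt cells; its smaller change in ko cells was called once the replicate number was a block. In PrePB against ActB, 5 of the 6 members were called in ko cells, 1 higher and 4 lower, where 54.2% of all tested genes were called, 27.1% higher and 27.0% lower. In wt cells all 6 were called, 2 higher and 4 lower, where 53.4% of all tested genes were, 27.1% higher and 26.3% lower. For PB against ActB the members' counts were the same. The background there was 62.2% in ko cells, 31.2% higher and 30.9% lower, and 62.0% in wt cells, 31.0% each way. A gene was called where limma's moderated test on log2(FPKM + 1) gave a two-sided Benjamini-Hochberg adjusted p below 0.05 over all tested genes. Calls were thus common among all genes in these comparisons. Coro2b, and Coro2a among the ko libraries, were below or near 1 FPKM in ActB, and Coro2b passed the filter on low values only through PrePB and PB. With sorted bulk RNA, fewer cells of a kind and less RNA per cell cannot be told apart.

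Markers of other cell types moved with the populations as well. The 7 macrophage and granulocyte markers summed to 2.25 and 4.09 FPKM in ko PB against 30.0 and 12.9 FPKM in ko ActB, and to 0.353 and 0.136 FPKM in wt PB against 7.89 and 15.1 FPKM in wt ActB, with 4 of the 7 at 0 in both libraries of ko PB, of wt PB and of ko ActB, and 3 in wt ActB. Most of the ActB sum was Adgre1, a macrophage surface receptor gene, which fell by 3.72 in ko PB against ko ActB on the log2(FPKM + 1) scale (adjusted p = 4.8e-06) and by 3.42 in wt cells (adjusted p = 9.14e-06). The 4 dendritic cell markers summed to 9.71 and 7.76 FPKM in ko PB against 22.9 and 17.5 FPKM in ko ActB, and to 7.41 and 8.78 FPKM in wt PB against 21.9 and 20.2 FPKM in wt ActB, most of it Flt3. The 6 T cell markers summed to 6.40 and 9.93 FPKM in ko PB against 1.75 and 0.777 FPKM in ko ActB, and to 5.01 and 4.25 FPKM in wt PB against 0.933 and 1.00 FPKM in wt ActB, and the 4 NK cell markers to 5.15 and 4.44 FPKM in ko PB against 0.0215 and 0.0405 FPKM in ko ActB, and to 5.15 and 6.01 FPKM in wt PB against 0 and 0.0238 FPKM in wt ActB. Most of the T cell sum in PB was Cd3g, with 5.46 and 8.17 FPKM in ko PB and 4.12 and 3.19 FPKM in wt PB. Nearly all of the NK cell sum was Eomes, with 5.15 and 4.4 FPKM in ko PB and 5.15 and 6.01 FPKM in wt PB. Of the T cell markers, 2 were at 0 in both libraries of ko PB and 1 in wt PB. Of the NK cell markers, 2 were at 0 in ko PB and 3 in wt PB. The part of other cell types in the coronin and actin gene changes was not tested.

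**Figure D1:**
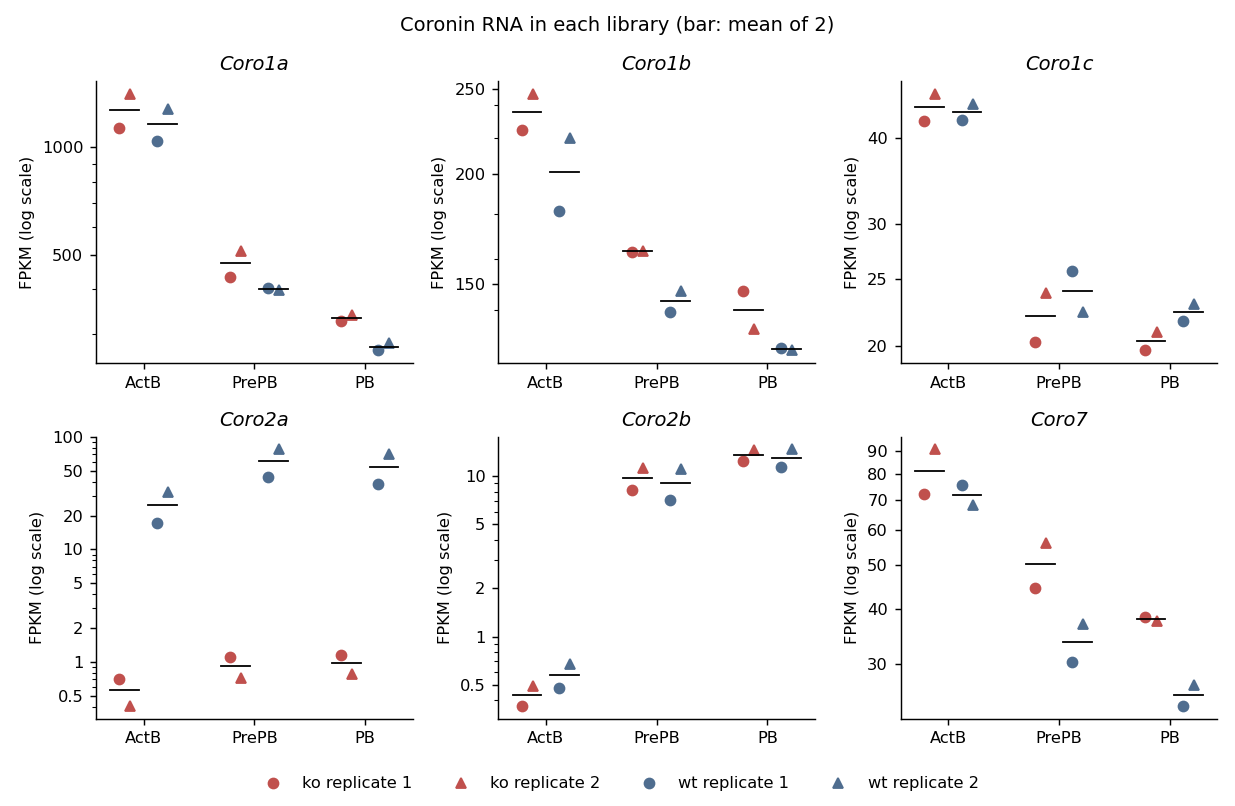
FPKM (log axis, its range set per gene) of the 6 coronins in each library of ActB, PrePB and PB cells; red is ko, blue wt, circles replicate 1, triangles replicate 2, and black bars the mean of 2. Coro1a, Coro1b, Coro1c and Coro7 are highest in ActB, Coro2b is below 1 FPKM there, and Coro2a lies at 0.406 to 1.16 FPKM in ko and 17.0 to 77.5 FPKM in wt libraries.

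Coro1a was the most abundant coronin in all 12 libraries. It had 1133 and 1413 FPKM in ko ActB against 1041 and 1279 FPKM in wt ActB. In PrePB it had 434 and 512 FPKM in ko and 403 and 398 FPKM in wt libraries. In PB it had 326 and 339 FPKM in ko and 270 and 282 FPKM in wt libraries. The populations did not overlap within either genotype. On the log2(FPKM + 1) scale the gene fell by 1.93 in ko PB against ko ActB (SE 0.13, adjusted p = 4.72e-07) and by 2.06 in wt PB against wt ActB (SE 0.13, adjusted p = 2.65e-07), which are 3.8-fold and 4.17-fold lower levels. Most of that difference was already there in PrePB, where the log2 change against ActB was -1.42 in ko and -1.53 in wt cells.

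Coro1a was also the single coronin called in PB against PrePB. There it fell by 0.50 in ko cells (SE 0.13, adjusted p = 0.0381) and by 0.53 in wt cells (adjusted p = 0.035), and 10.8% of all tested genes were called in ko cells, 4.24% as lower, and 8.73% in wt cells, 3.70% as lower. Neither call stood when any 1 library of the compared groups was left out: the adjusted p was then 0.0693 to 0.196 in ko and 0.131 to 0.153 in wt cells. The direction stayed the same. With the replicate number as a block the adjusted p was 0.0115 in ko and 0.0106 in wt cells, and in wt cells Coro2b was called too, so that 2 members and 1558 of all tested genes were, against 966 without the block.

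Coro1b, which at the lamellipodium opposes Arp2/3 and brings the cofilin phosphatase slingshot to it, changed least among the members that fell. It had 224 and 247 FPKM in ko ActB and 182 and 220 FPKM in wt ActB, and 147 and 133 FPKM in ko PB and 127 and 126 FPKM in wt PB. All PB libraries of a genotype lay below its ActB libraries. Its log2 change in PB against ActB was -0.74 in ko (SE 0.10, adjusted p = 7.64e-05) and -0.66 in wt cells (SE 0.10, adjusted p = 0.00019). In PrePB it stood between them, at 163 and 164 FPKM in ko and 139 and 147 FPKM in wt libraries. In the GENCODE M21 annotation Coro1b overlaps Ptprcap on its own strand and Rps6kb2 on the other, and how fragments in shared stretches were assigned is not stated, so its level is uncertain to that extent.

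Coro1c, the broadly expressed type I coronin, reached its lower level by the PrePB stage. It had 42.4 and 46.4 FPKM in ko ActB against 42.6 and 44.8 FPKM in wt ActB. PrePB libraries held 20.2 and 23.9 FPKM in ko and 25.6 and 22.4 FPKM in wt, and PB libraries 19.7 and 21.0 FPKM in ko and 21.7 and 23.0 FPKM in wt. The log2 change in PrePB against ActB was -0.98 in ko (adjusted p = 1.5e-05) and -0.84 in wt cells (adjusted p = 4.8e-05). PB against PrePB was not called in either genotype, with changes of -0.11 (adjusted p = 0.562) in ko and -0.10 (adjusted p = 0.607) in wt cells.

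Coro7 fell in both genotypes and, in PrePB and PB, was the member after Coro2a with the widest gap between ko and wt libraries. Its ActB libraries held 72.1 and 90.8 FPKM in ko and 75.6 and 68.2 FPKM in wt. PrePB libraries held 44.4 and 56.1 FPKM in ko and 30.3 and 36.9 FPKM in wt, and PB libraries 38.3 and 37.6 FPKM in ko and 24.2 and 27.0 FPKM in wt. The genotypes overlapped in ActB, while in PrePB and PB both ko libraries lay above both wt libraries. PB against ActB gave -1.07 in ko (SE 0.14, adjusted p = 6.83e-05) and -1.45 in wt cells (SE 0.14, adjusted p = 6.4e-06). Coro7 overlaps Vasn and Dnaja3 on the opposite strand. The library kit marks strand, but whether the counting used it is not stated; the same holds for Coro1a, which overlaps Bola2.

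Coro2b went the other way. It was low in activated B cells, with 0.371 and 0.490 FPKM in ko ActB and 0.477 and 0.675 FPKM in wt ActB. PrePB libraries held 8.17 and 11.3 FPKM in ko and 7.08 and 11.1 FPKM in wt, and PB libraries 12.5 and 14.5 FPKM in ko and 11.4 and 14.7 FPKM in wt. Every PrePB and PB library was above every ActB library. On the log2(FPKM + 1) scale, which understates the change of so low a gene, it rose by 3.34 in ko PB against ko ActB (SE 0.21, adjusted p = 2.08e-07) and by 3.15 in wt PB against wt ActB (SE 0.21, adjusted p = 3.1e-07). The mean FPKM was 31.4-fold higher in ko PB than in ko ActB and 22.7-fold higher in wt PB than in wt ActB. With no filter on low values the adjusted p was 1.15e-05 in ko and 1.54e-05 in wt cells. Replicate 1 was below replicate 2 in all 6 groups, and the difference of PB from PrePB was not called (0.45, adjusted p = 0.217, in ko and 0.50, adjusted p = 0.169, in wt cells). With the replicate block it was called in wt cells (adjusted p = 0.0389).

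In ko cells Coro2a was at 0.706 and 0.406 FPKM in ActB, 1.11 and 0.720 FPKM in PrePB and 1.16 and 0.786 FPKM in PB. The PrePB and PB libraries lay above the ActB libraries by small amounts: the log2 change was 0.30 (adjusted p = 0.498) in PrePB and 0.34 (adjusted p = 0.419) in PB against ActB, with intervals at 95% of -0.48 to 1.08 and -0.44 to 1.12. Mean FPKM was 1.65-fold higher in ko PrePB and 1.75-fold higher in ko PB than in ko ActB. Replicate 1 was above replicate 2 in the 3 ko groups, at 1.74, 1.55 and 1.48 times its level. With the replicate number as a block, which takes out that steady difference, both steps were called in ko cells (adjusted p = 0.0194 for PrePB and 0.00893 for PB). Replicate 1 of ko ActB and of ko PB differ in the pattern of low values, and the part of that pattern in the PB call was not tested.

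Coro2a in wt cells had 17.0 and 32.3 FPKM in ActB, 44.1 and 77.5 FPKM in PrePB and 37.8 and 70.2 FPKM in PB. Both PrePB and both PB libraries were above both ActB libraries, but replicate 1 stood at close to the same fraction of replicate 2 each time, 0.527 in ActB, 0.569 in PrePB and 0.539 in PB, the reverse of the order in ko cells. Mean FPKM was 2.46-fold higher in wt PrePB than in wt ActB and 2.19-fold higher in wt PB. The log2 change was 1.28 in wt PrePB against wt ActB (SE 0.35, adjusted p = 0.0104) and 1.10 in wt PB against wt ActB (SE 0.35, adjusted p = 0.0186). Without the block, single libraries decided both calls. Without wt ActB replicate 1 the changes were 0.84 (adjusted p = 0.105) and 0.66 (adjusted p = 0.177), without wt PrePB replicate 2 the first was 0.88 (adjusted p = 0.0982), and without wt PB replicate 2 the second was 0.66 (adjusted p = 0.17). The PB call also ended with no filter on low values (adjusted p = 0.056) and with libraries rescaled to equal totals (0.70, adjusted p = 0.0874). With the replicate block the adjusted p was 3.44e-06 for PrePB and 6.36e-06 for PB. Whether the steps of Coro2a differ between ko and wt cells was not tested, since its ko values chose the family.

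**Figure D2:**
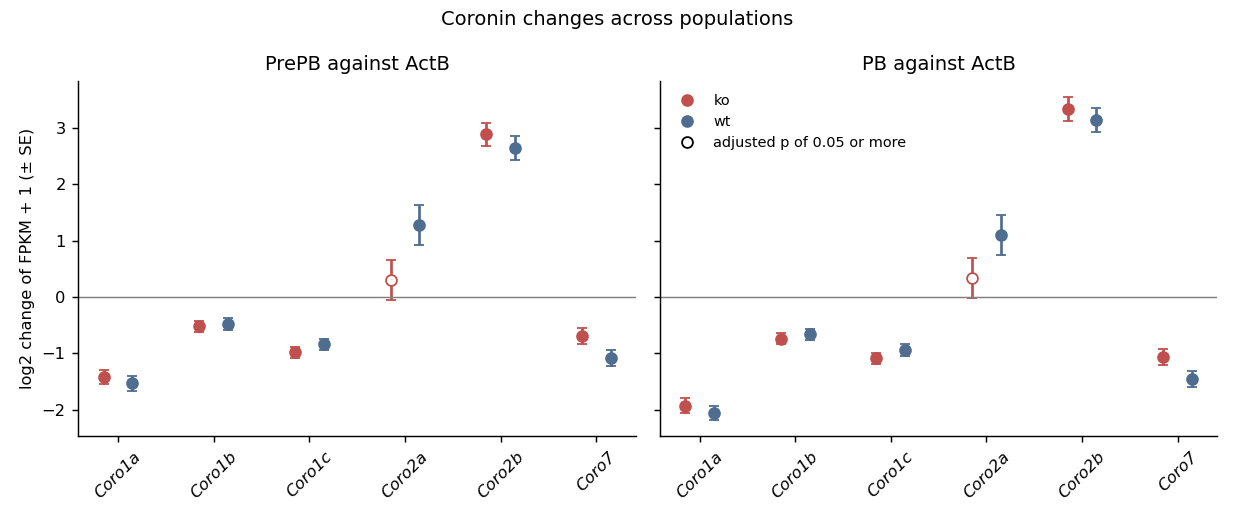
log2 change of FPKM + 1 in PrePB (left) and PB (right) against ActB for each coronin in ko (red) and wt (blue) cells, with the SE of limma's fit; open points have an adjusted p of 0.05 or more. Coro1a, Coro1b, Coro1c and Coro7 lie below 0 and Coro2b at 2.65 to 3.34, and Coro2a in ko cells is the open point in both panels.

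The steps of the other 5 members were tested for a difference between genotypes, as the ko step minus the wt step, with limma over all genes. None of the 5 was called for PrePB against ActB, PB against ActB or PB against PrePB, where 0.0361%, 0.0452% and 0.00% of all tested genes were called, and 0 of the 5 had an unadjusted p below 0.05 in any of the 3. Coro7 came nearest, with a difference of 0.39 for PrePB against ActB (SE 0.20, 95% interval -0.05 to 0.84, unadjusted p = 0.0776) and of 0.38 for PB against ActB (95% interval -0.07 to 0.82, unadjusted p = 0.0874). For Coro1a the PB against ActB interval was -0.29 to 0.55 and for Coro1b it was -0.40 to 0.23.

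Summed over the 6 members, coronin RNA was 546 ± 0.718 FPKM in ko PB and 1636 ± 230 FPKM in ko ActB, and 518 ± 36.1 FPKM in wt PB and 1502 ± 202 FPKM in wt ActB (SD, n = 2 each). The make-up shifted with the sum. Coro1a made up 61.0% of the sum in ko PB and 77.8% in ko ActB, and 53.4% in wt PB and 77.2% in wt ActB. Coro2a took 0.178% of it in ko PB and 10.3% in wt PB, and Coro2b took 2.47% in ko PB and 2.51% in wt PB. Coro1b followed Coro1a in every group, at 25.7% in ko PB and 24.5% in wt PB. In wt PB Coro2a came next, with no overlap to Coro7 after it, whereas in ko PB Coro7 came next and Coro2a was the lowest of the 6. In ko ActB the last 2 places could not be ordered, because the libraries of Coro2a and Coro2b overlapped.

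Set against wt cells, the ko cells had less Coro2a in every population. This is the value by which the family was picked. Mean FPKM was 0.556 ± 0.212 in ko ActB and 24.7 ± 10.8 in wt ActB, 0.917 ± 0.278 in ko PrePB and 60.8 ± 23.6 in wt PrePB, and 0.973 ± 0.265 in ko PB and 54.0 ± 22.9 in wt PB (SD, n = 2 each). The level was thus 44.4-fold, 66.3-fold and 55.5-fold lower in ko ActB, PrePB and PB. On the log2(FPKM + 1) scale the differences were -3.98, -4.96 and -4.74 (SE 0.35 each), and with a pseudocount of 0.1 they were -5.20, -5.88 and -5.61. Without wt replicate 1 in all 3 populations they were -4.43, -5.36 and -5.18. Within the libraries of the first pattern of low values they were -3.84 in ActB and -4.82 in PrePB, with no such ko library in PB. There the ko side is replicate 1 alone, so the pattern and the ko replicate cannot be told apart.

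The other members differed far less between genotypes. By the rule for calls, 1 of the 6, Coro2a, passed in each population, which restates how it was picked; 0.0542% of all tested genes passed in ActB, 0.117% in PrePB and 0.407% in PB. Since the family was chosen on this contrast, nothing is read from those counts. Coro7 had log2 differences of 0.17 in ActB, 0.56 in PrePB and 0.55 in PB (SE 0.14 each). Within the first pattern of low values, where ko replicate 1 stands alone, they were 0.01 in ActB and 0.40 in PrePB. With ko replicate 1 left out instead they were 0.34 in ActB and 0.73 in PrePB. In the same order of populations, Coro1a had 0.13, 0.24 and 0.27, Coro1b 0.23, 0.19 and 0.15, Coro1c 0.02, -0.12 and -0.13, and Coro2b -0.14, 0.10 and 0.05. The ko and wt libraries did not overlap for 2 of the 6 members in ActB, 4 in PrePB and 5 in PB, while over all tested genes this held for 36.0%, 47.1% and 49.3%. The 3 comparisons share no library, but by their deposited names they draw on the same 4 sources, 1 for each genotype and replicate. They are therefore not independent repeats. In PB the pattern of low values separates the genotypes as well, and the part of that pattern in these differences was not tested.

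**Figure D3:**
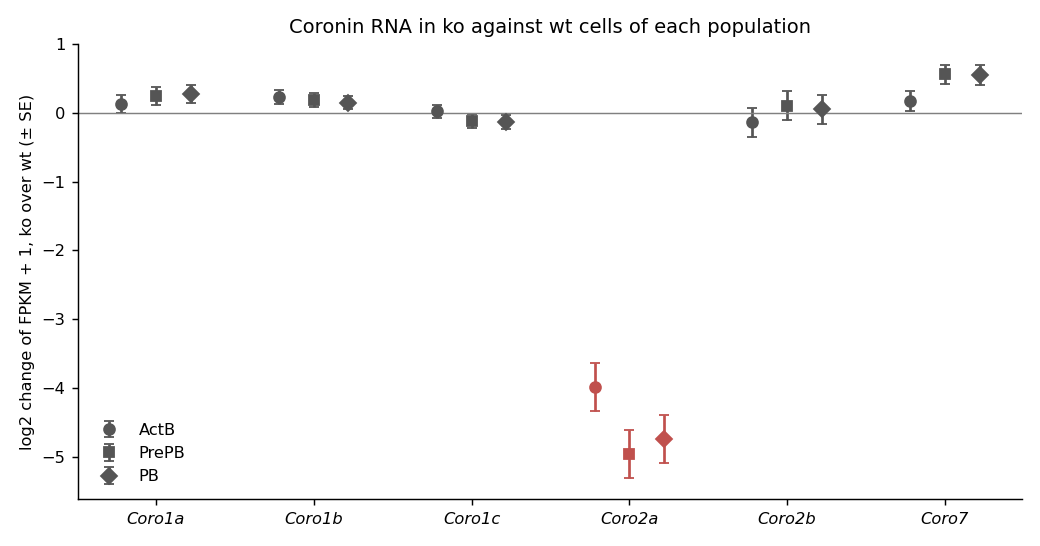
log2 change of FPKM + 1 in ko over wt cells for each coronin, in ActB (circles), PrePB (squares) and PB (diamonds), with the SE of limma's fit and no test. Coro2a (red) lies between -4.96 and -3.98, and the other 5 members (grey) between -0.14 and 0.56.

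The difference between the wt replicates was unusual for Coro2a. On the log2 scale replicate 1 was below replicate 2 by at least 0.80 in each population, while the median size of the difference over all tested genes was 0.14 in ActB, 0.13 in PrePB and 0.12 in PB. Only 18 of the 11069 tested genes (0.163%) were as far apart in the same direction in all 3 wt populations, and 10 of them were lower in replicate 1. Among these 10 were the Y-linked genes Ddx3y, Eif2s3y, Kdm5d and Uty, and among the other 8 were Xist and Mid1 on the X chromosome. The remaining genes lower in replicate 1, beside Coro2a, were Ahcy, Ccnb1ip1, Rnase4, Rprl3 and Slpi. Besides Coro2a, the one gene of the 18 on chromosome 4 was Alad, which was higher in replicate 1. By Xist and the Y-linked genes, wt replicate 1 reads as female and all other libraries as male, so sex was not balanced between ko and wt cells. Whether sex moved Coro2a was not tested.

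Genes beside Coro2a were looked up by their order in the RefSeq table of GRCm38.p6, 5 on each side; 5 of these 10 were listed in the files and 4 were tested. Trim14, which encodes an adaptor of antiviral signalling, had 11.3 and 12.3 FPKM in ko ActB and 11.7 and 18.5 FPKM in wt ActB. In PrePB it had 5.75 and 6.07 FPKM in ko and 7.71 and 11.5 FPKM in wt libraries, and in PB 5.17 and 5.10 FPKM in ko and 6.89 and 11.6 FPKM in wt libraries. As with Coro2a, wt replicate 1 was the lower one each time, at 0.634, 0.670 and 0.595 of replicate 2, and the ko libraries lay below both wt libraries in PrePB and PB. The ko change was not called (-0.30 in ActB, -0.60 in PrePB and -0.70 in PB, with adjusted p of 0.814, 0.293 and 0.211). Tbc1d2, a regulator of Rab7, was near or below 1 FPKM throughout, with wt replicate 1 at 0.568, 0.694 and 0.630 of replicate 2. Its genotypes overlapped in ActB (0.888 and 0.463 FPKM in ko, 0.626 and 1.10 FPKM in wt). They also overlapped in PB (0.833 and 0.882 FPKM in ko, 0.631 and 1.00 FPKM in wt). In PrePB its ko libraries (0.447 and 0.312 FPKM) lay below the wt libraries (0.518 and 0.746 FPKM). Nans and Anp32b, farther along, had replicate ratios of 0.931 to 1.14 in wt cells. Anp32b, a histone chaperone, had log2 differences in ko against wt cells of -0.31, -0.41 and -0.44, none of them called (adjusted p of 0.581, 0.19 and 0.138), and Gabbr2 was at or near 0.

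**Figure D4:**
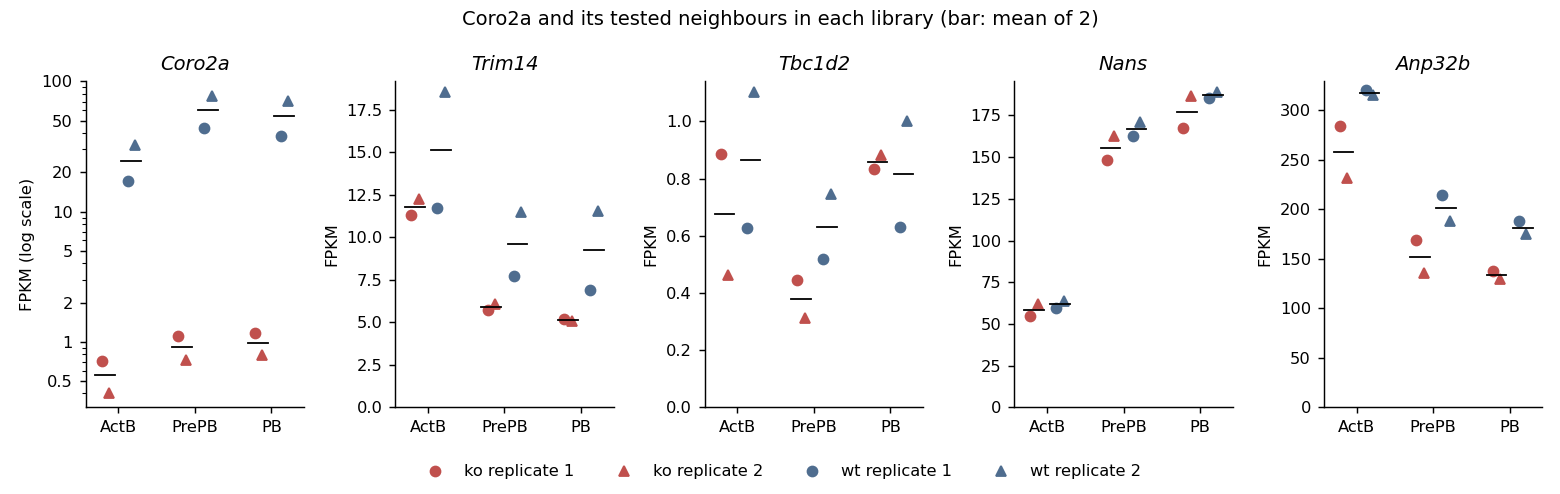
FPKM of Coro2a (log axis) and of its 4 tested neighbours Trim14, Tbc1d2, Nans and Anp32b (linear axes from 0) in each library; red is ko, blue wt, circles replicate 1, triangles replicate 2, and black bars the mean of 2. In Coro2a, Trim14 and Tbc1d2 the wt triangle is above the wt circle in all 3 populations.

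The genes whose log2(FPKM + 1) over the 12 libraries was most like that of each member were found over all tested genes; these are descriptions over libraries that share culture, genotype and replicate. For Coro2a they were Hist1h2bb (Pearson r = 0.948), Ctnna1 (0.929), Klhl9 (0.926), Ndufaf2 (0.922) and Snora64 (0.915). Of these genes Klhl9 alone lies on chromosome 4, as Coro2a does, with Hist1h2bb and Ndufaf2 on chromosome 13, Ctnna1 on 18 and Snora64 on 17. Their ko differences were far smaller than that of Coro2a, with the exception of the small RNA Snora64, which was listed at 0 in all ko libraries and in wt ActB replicate 1. In Hist1h2bb, Ctnna1, Klhl9 and Ndufaf2 every ko library lay below every wt library, and Hist1h2bb was low, at 0.502 to 3.48 FPKM. The likeness to Coro2a thus restates in part the ko-against-wt difference by which the family was picked. Coro2b was most like Cnst (0.997), Inpp5a (0.996) and Fndc3b (0.996), and Coro1a most like Diras2 (0.998), A430078G23Rik (0.996) and Rdh12 (0.996). Coro1c was followed by Slc25a4 (0.994), Capzb (0.992), a subunit of the filament-capping protein, and Rcc2 (0.991). The nearest to Coro1b were 1110007C09Rik (0.989), Cyth1 (0.987) and Esyt1 (0.982), and to Coro7 they were Arhgap27 (0.988), Pptc7 (0.983) and Mkl1 (0.981). Among the members, Coro1a was close to Coro1b (0.964), Coro1c (0.955) and Coro7 (0.944) and opposite to Coro2b (-0.961). Coro2a had r between -0.493 and 0.152 with the other members. Since r spans both genotypes, the low r of Coro2a rests in part on the ko-against-wt difference by which the family was picked. Nothing is read from it, and r within wt cells alone was not computed.

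The genes that coronins work with were counted from 7 lists, 108 tested genes of 115 symbols. The lists were chosen with earlier results of these data known, so their counts are descriptions. In PB against ActB, 15 of the 108 were higher and 68 lower in ko cells, and 13 higher and 65 lower in wt cells, while over all 11069 tested genes the split was 3458 higher and 3422 lower in ko and 3432 each way in wt cells. The balance over all genes hangs on the scaling: with every library rescaled to the same FPKM total, small RNA genes set aside, the median of all genes in PB against ActB moved by more than 0.1, to -0.272 in ko and -0.376 in wt cells, and the split became 2445 higher and 5097 lower in ko and 2150 higher and 5769 lower in wt cells. In ko against wt cells, limma called none of the 108 genes in any population; 3 (2.78%) had an unadjusted p below 0.05 in ActB, 15 (13.9%) in PrePB and 25 (23.1%) in PB, against 8.07%, 15.0% and 16.0% of all tested genes. With equal totals 2 of them, both among actins and side binders, were called higher in ko PB than in wt PB. The members' directions in PrePB and PB against ActB were the same with the rescaled values.

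The Arp2/3 complex, the nucleator that type I coronins bind, fell in 8 of its 10 tested genes in both genotypes, with a median log2 change of -0.57 in ko and -0.49 in wt PB against ActB (over all genes, -0.008 in ko and -0.014 in wt cells). Beside this and the activators below, 30.9% of all tested genes in ko and 31.0% in wt cells were called lower. As higher, 31.2% in ko and 31.0% in wt cells were called. Actr3, which encodes the subunit Arp3, had 60.9 and 60.7 FPKM in ko PB against 132 and 143 FPKM in ko ActB, and 60.3 and 58.0 FPKM in wt PB against 130 and 152 FPKM in wt ActB. Actr2 fell by 0.91 in ko (adjusted p = 1.01e-06) and by 0.96 in wt cells (adjusted p = 6.94e-07). The single gene of the complex that rose was Actr3b, an alternative Arp3, which was also higher in PB than in PrePB, with 28.5 and 26.8 FPKM in ko PB against 15.0 and 11.7 FPKM in ko PrePB, and 27.9 and 36.5 FPKM in wt PB against 13.9 and 18.6 FPKM in wt PrePB. Among activators of the complex, 6 rose and 12 fell of 22 in ko and 6 rose and 11 fell in wt cells. Wipf1, the partner that stabilizes WASP, fell by 1.24 in ko and by 1.41 in wt cells. Nck2, an adaptor that recruits WASP proteins, rose to 18.8 and 24.3 FPKM in ko PB, against 2.68 and 3.36 FPKM in ko ActB, and to 21.2 and 23.0 FPKM in wt PB, against 2.63 and 3.32 FPKM in wt ActB.

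Of the genes of cofilin and filament turnover, 20 of 23 fell and 1 rose in ko cells, and 18 fell and 1 rose in wt cells, with medians of -0.78 in ko and -0.73 in wt cells. Beside this list and the next, 30.9% of all tested genes in ko and 31.0% in wt cells were called lower. With equal totals 20 of the 23 were lower in each genotype. Under that scaling 5097 of the 11069 tested genes were lower in ko and 5769 in wt cells. Gelsolin (Gsn), which severs filaments, had 4.09 and 3.31 FPKM in ko PB against 39.7 and 42.6 FPKM in ko ActB, and 3.57 and 2.61 FPKM in wt PB against 33.3 and 40.2 FPKM in wt ActB. Tmsb4x, which encodes the monomer-binding thymosin beta 4, had 654 and 628 FPKM in wt PB against 3782 and 4950 FPKM in wt ActB. Of the genes for actins and side-binding proteins, 15 of 25 fell and 2 rose in each genotype. Evl, an Ena/VASP protein that promotes filament elongation, fell by 4.59 in ko (adjusted p = 3.14e-09) and fell by 5.25 in wt cells (adjusted p = 1.59e-09). The bundling protein gene Lcp1 had 61.4 and 64.5 FPKM in ko PB against 289 and 291 FPKM in ko ActB, and 49.9 and 50.8 FPKM in wt PB against 291 and 318 FPKM in wt ActB. Its relative Pls1 went up, by 1.63 in ko PB against ko PrePB (adjusted p = 3.93e-05) and by 1.58 in wt PB against wt PrePB (adjusted p = 6.16e-05).

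The NCoR complex, in which Coro2a was found, had 4 of its 6 genes called lower and none higher in PB against ActB in both genotypes. Of all tested genes, 30.9% in ko and 31.0% in wt cells were called lower. The medians of the complex were -0.37 in ko and -0.46 in wt cells. In limma 4 of the 6 had an unadjusted p below 0.05 in each genotype, near the share of all tested genes (65.8% in ko and 65.4% in wt cells). Tbl1xr1, an exchange factor of the complex, had 7.17 and 7.66 FPKM in ko PB against 14.0 and 13.3 FPKM in ko ActB, and 6.12 and 6.22 FPKM in wt PB against 13.6 and 13.0 FPKM in wt ActB. Its relative Tbl1x fell by 0.41 in ko and by 0.45 in wt cells. The 10 Golgi and Cul3-Klhl20 partners listed for Coro7 gave 1 higher and 3 lower in each genotype, a share of lower calls near that of all tested genes (30.9% in ko and 31.0% in wt cells). With equal totals 8 of the 10 were lower in each genotype. Under that scaling 5097 of the 11069 tested genes were lower in ko and 5769 in wt cells. Golga2, which encodes the Golgi matrix protein GM130, rose by 0.98 in ko (adjusted p = 1.68e-05) and by 0.96 in wt cells (adjusted p = 1.96e-05), while the clathrin adaptor gene Ap1m1 fell by 1.40 in ko and by 1.47 in wt cells. Of 12 calcineurin and calcium genes, 4 rose and 6 fell in ko cells and 2 rose and 6 fell in wt cells. Over all tested genes, 31.2% in ko and 31.0% in wt cells were called higher, beside the shares of lower calls given above. Itpr1, a calcium channel of the endoplasmic reticulum, had 7.22 and 6.05 FPKM in ko PB against 41.0 and 42.8 FPKM in ko ActB, and 5.27 and 4.52 FPKM in wt PB against 46.8 and 38.0 FPKM in wt ActB. The calcineurin subunit gene Ppp3cc rose by 1.53 in ko (adjusted p = 1.91e-07) and by 1.54 in wt cells (adjusted p = 1.73e-07).

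**Figure D5:**
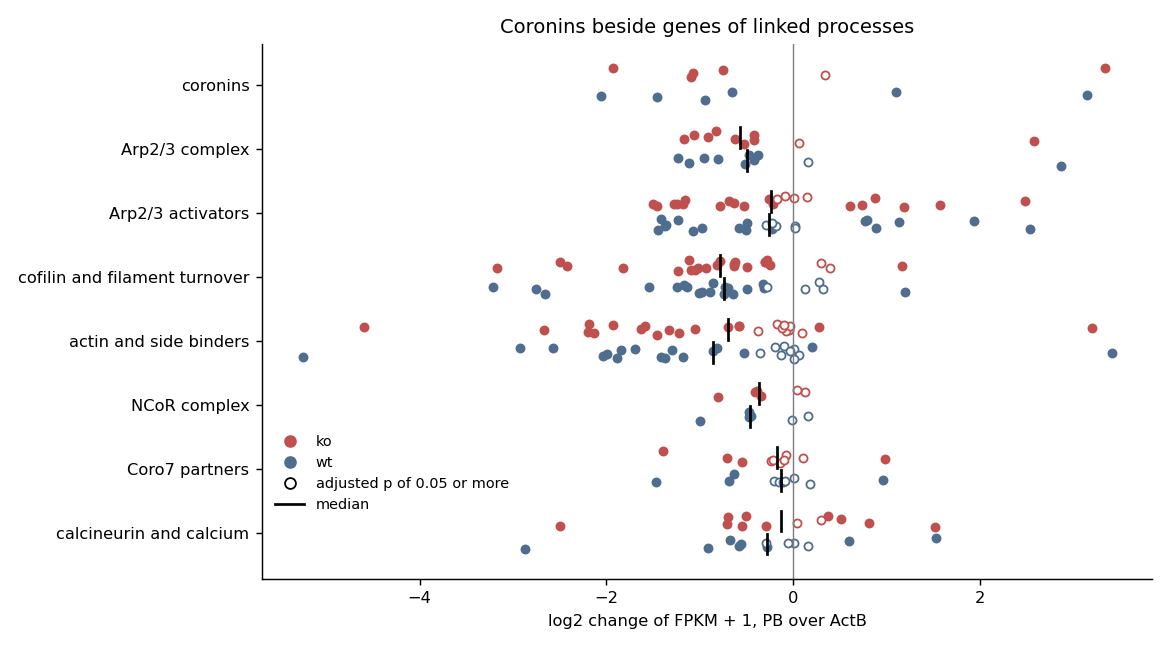
log2 change of FPKM + 1 in PB over ActB for the coronins and the tested genes of 7 linked lists, ko (red, upper row of each pair) and wt (blue, lower row); filled points have an adjusted p below 0.05 and black bars are medians of the lists (none is drawn for the coronins). The points of cofilin and filament turnover lie mostly below 0, with medians of -0.78 in ko and -0.73 in wt cells.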

How the data were processed

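RNA was measured in 12 libraries, 2 for each of 6 groups. The deposited FPKM values are the authors', with 1 table per library; per the submitters' processing notes the build is mm9 and the tools are TopHat2 2.0.14, Cuffnorm 2.2.1 and Cufflinks 2.2.1, with Cuffdiff and, for base calls, bcl2fastq (2.17.1.14 and 0.3.1). The annotation, filters and use of strand in counting are not given in the sources used here. The tables hold no counts, so depth is unknown and no counting interval was computed; a value at 0 is called listed at 0. The libraries summed to between 418966 and 581262 FPKM.

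Values were taken as log2(FPKM + 1). A gene was kept where 2 or more libraries reached 1 FPKM, and the 11069 kept were fitted with limma 3.58.1 (limma-trend, R 4.3.3), 1 coefficient per group, with 6 residual and 4.49 prior degrees of freedom; p-values were two-sided and adjusted by Benjamini-Hochberg over all tested genes, with calls below 0.05. SE is that of the log2 change. The model was tested on simulated data with known changes. Low values of 2 libraries were said to share a pattern from the share of genes below 0.5 FPKM at their most frequent ratio (log2 tolerance 0.002): 9.07% to 20.5% within the first pattern, 7.7% to 16.6% within the second and 2.13% to 4.89% across. Plots were made in Python 3.11.15 (matplotlib 3.10.9).

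The members and gene lists were chosen with earlier results of these data known. Named genes were all members, up to 2 called genes of lowest p per list and comparison, 5 neighbours on each side of Coro2a, and the 5 genes most like Coro2a and 3 most like each other member. The alternatives were no low-value filter or one at 5 FPKM, 0.1 as pseudocount, quantile normalization, equal totals without 1273 small RNA genes, the compared groups alone, a replicate block, and leaving out each library, wt replicate 1 or the second pattern. A lone library was taken to vary as the other groups do. Within a genotype the replicate number was taken to pair the libraries of the 3 populations: the names of the deposited tables carry 1 source number for each genotype and replicate, 4 in all, and wt replicate 1 alone has high Xist in every population, though no label says that the source is 1 animal. Replicate differences correlated across genes at 0.10 to 0.29 in ko and 0.05 to 0.32 in wt cells. The block was not part of the first fit.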

Additional observations from a re-analysis of the deposited data

How the results depend on the processing

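The direction of every called coronin change was the same under all settings run. Differences between ko and wt cells that changed sign when a library was left out were those of Coro1a and Coro1c in ActB and of Coro2b in PrePB and PB. The counts of members called in PrePB and PB against ActB stayed within 1.5 times of the first count, and those of PB against PrePB did not. There the count was 1 in ko cells and 1 in wt cells; it was 0 in both with no filter, 3 in both with equal totals, 0 in both without wt replicate 1 in all 3 populations, and 0 to 0 in both when each library was left out in turn. With the compared groups alone it was 0 in ko cells. Equal totals added Coro1b (-0.37 in ko and -0.34 in wt cells) and Coro7 (-0.53 in both), and lowered the median of all genes; for PB against PrePB the all-gene split was then 389 higher and 1024 lower in ko and 315 higher and 1143 lower in wt cells, against 727 and 469 in ko and 556 and 410 in wt cells. For PrePB against ActB it was 2391 and 3977 in ko and 2110 and 4675 in wt cells, against 3003 and 2993 in ko and 2999 and 2911 in wt cells. For ko against wt cells, a pseudocount of 0.1 gave Coro2a -5.20 in ActB, -5.88 in PrePB and -5.61 in PB, a larger pseudocount shrinking the change of a low gene by construction. The cause of the other shifts was not tested.

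Replicate differences of ko and wt correlated across genes at -0.11, -0.08 and -0.05 in ActB, PrePB and PB, so the numbers are not shown to pair ko with wt libraries. With the replicate block, 2 members were called in wt PB against wt PrePB (Coro2b was added, adjusted p = 0.0389) and Coro2a was called in ko PrePB (0.30, adjusted p = 0.0194) and ko PB (0.34, adjusted p = 0.00893) against ko ActB; it changed no other call of a member in a population step. The genes called in ko against wt cells numbered 7, 16 and 59, against 6, 13 and 45 without it. With replicate numbers crossed between genotypes, a setting chosen after seeing the data, they numbered 8, 21 and 77. Depth is unknown, so the levels of Coro2a in ko cells and of Coro2b in ActB, all below or near 1 FPKM, carry an unknown counting error.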
